A study of Mus musculus with 8 samples.

Results

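The genes of the proteasome subunits were examined in the dorsal dentate gyrus of wild-type mice and of mice labelled as knockouts of Cav3.1, a T-type calcium channel. Members were the genes whose symbol in the platform annotation starts with Psma, Psmb, Psmc or Psmd followed by a digit. There were 40 such genes among the 19321 genes with a symbol on the array, represented by 43 probes, and for each gene the probe with the highest mean spot intensity over all 8 arrays was used. Total RNA came from intact brain, dorsal hippocampal dentate gyrus, of male mice between 8 and 12 weeks old, 4 arrays for wild-type mice (WT) and 4 for mice of the genotype Cav3.1 KO. Both groups are labelled with the strain C57BL/6J, and the labels name no treatment and no Cre driver, and do not describe how Cacna1g, the gene of Cav3.1, was disrupted. The series design speaks of 4 brain slices for each genotype, and does not say whether any 2 arrays share a mouse, so p-values here reflect the spread among arrays, some of which may be technical.

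The proteasome degrades proteins that carry a ubiquitin chain. Its core particle, the 20S proteasome, is a barrel of alpha rings, which gate entry, around beta rings, which hold the proteolytic sites. The regulatory particle, 19S, sits on the end of the barrel, where a ring of ATPases unfolds the substrate and non-ATPase subunits bind and remove ubiquitin. In cells exposed to interferon, and in immune cells, the catalytic beta subunits encoded by Psmb5, Psmb6 and Psmb7 are replaced by the immune subunits of Psmb8, Psmb9 and Psmb10, whose peptides are presented on MHC class I molecules. In neurons the proteasome takes part in the turnover of synaptic proteins. The transcription factor NFE2L1 raises the transcription of many proteasome genes together when proteasome activity is low, through antioxidant response elements.

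By role, 7 members encode alpha subunits of the 20S core, 7 its constitutive beta subunits and 3 the immune catalytic subunits. A further 6 encode the ATPases of 19S and 11 its non-ATPase subunits. Psmd5, Psmd9 and Psmd10 encode chaperones of 19S assembly, and Psma8 and Psmb11 encode core subunits known from testis and thymic epithelium. The rule also takes Psmc3ip, a cofactor of meiotic recombination that is no proteasome subunit.

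Promoter windows, from 250 bases before to 50 after the start site, were found in RefSeq (build GRCm38.p6) for 33 of the 40 members, 35 windows in all. The windows were searched on both strands for 10 short motifs, and a match describes letters, not a bound site. The core of the antioxidant response element, TGACNNNGC, occurred in 5 of 33 members (15.2%) and in 12.4% of all 32851 windows. This share is near that of all windows, so the matches do not mark these promoters out. The 5 stretches are shown because the element is that of the factor known to control these genes together. The match to its core is in capitals, and each sequence is written 5′ to 3′ in the direction of the gene.
Psmb5, chr14:54618010-54618066, minus strand: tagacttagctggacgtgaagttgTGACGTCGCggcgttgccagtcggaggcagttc
Psmb6, chr11:70525324-70525380, plus strand: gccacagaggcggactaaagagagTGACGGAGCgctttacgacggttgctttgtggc
Psmc6, chr14:45329574-45329629, plus strand: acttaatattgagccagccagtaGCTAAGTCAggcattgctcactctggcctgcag
Psmd12, chr11:107479278-107479313, plus strand: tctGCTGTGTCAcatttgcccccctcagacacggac
Psmd9, chr5:123228135-123228191, plus strand: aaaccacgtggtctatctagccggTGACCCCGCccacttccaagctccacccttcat
In Psmb5, Psmb6 and Psmd9 the match lay close to the start site, its first base at positions -47, -9 and -31 counted from that site, while in Psmc6 and Psmd12 it lay at -227 and -247 and on the opposite strand. TGACNNNGC followed directly by A occurred in 1 member, Psmd12 (3.04% of all windows), and the related form TGANNCAGC, which can overlap the first, in 3, Psmb5, Psmc6 and Psmd12 (5.08% of all windows). The ETS site CCGGAAG occurred in 11 of 33 members (33.3%) against 8.86% of all windows, and the GC box GGGCGG in 19 (57.6%) against 35.7%. The median G and C content was 56.7% in the members' windows and 52.7% in all windows. The CCAAT box CCAAT was in 14 members (42.4%) against 37.4%, the E-box CACGTG in 3 (9.09%) against 7.15%, and the cyclic AMP response element TGACGTCA in 0 of 33 against 1.79%. Of the elements of interferon signalling, the interferon-stimulated response element (GAAA, any 2 bases, GAAA) was in 3 members (9.09% against 3.44%), Psmb3, Psmd4 and Psmd9, and TTCNNNGAA in 2 (6.06% against 8.30%), Psmd2 and the immune subunit gene Psmb8. The stretch of Psmb8 is shown with that match in capitals, its first base at position -97.
Psmb8, chr17:34198074-34198130, plus strand: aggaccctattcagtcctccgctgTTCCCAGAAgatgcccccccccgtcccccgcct

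Mean blank spots of the arrays lay between 53.0 and 63.4, and 85.4% to 93.0% of probes were detected. Any pair of arrays correlated across the probes tested with r between 0.991 and 0.997. All 40 members were detected on all 8 arrays and entered the test, and 34 lay among the brightest 25% of the probes tested. The label of the tissue was checked on 10 markers of dentate granule neurons, all 10 detected on every array, whose mean on the normalised log2 scale ran from 7.22 to 7.25 for WT and from 6.998 to 7.14 for Cav3.1 KO, with 8 of 10 lower in Cav3.1 KO and 1 called. In bulk tissue, fewer cells of a type and less RNA per cell cannot be told apart. Markers of thalamus and habenula stood highest on Cav3.1 KO replicates 2 and 3, at 7.54 and 7.55 against at most 7.04 on the other arrays. Those of choroid plexus ran from 7.18 to 8.71 over the WT arrays and from 6.35 to 8.53 over the Cav3.1 KO arrays. Those of ependyma ran from 6.69 to 7.08 and from 6.21 to 7.35. Both were lowest on Cav3.1 KO replicate 4, so neighbouring tissue varied on other arrays too. Its part in the result was not tested. The scan headers give the slope of a straight line between gains, 0.244 to 0.247 on WT replicates 1, 2 and 4 and Cav3.1 KO replicate 1, and 0.235 or 0.236 on the other 4 arrays. Genotype and this split of the arrays therefore overlapped in part, and values within each set are given beside the main results. Before normalisation these sets also differed in brightness. Mean blank spots were 53.0 to 56.2 in the first set and 59.7 to 63.4 in the other. The median probe was at 80.9 to 87.4 and at 90.2 to 94.3. The headers name no scan setting or run, so scan setting below means only this split. The first set holds a single Cav3.1 KO array, replicate 1, and the other a single WT array, replicate 3. Each difference within a set therefore rests on 1 array of a genotype. The probe of Cacna1g read 6.43, 6.61, 6.53 and 6.61 in WT and 6.55, 6.43, 6.39 and 6.48 in Cav3.1 KO, which differed by -0.08 (SE 0.0508, limma adjusted p 0.816, exact permutation p 0.171). Its groups overlapped, and where the probe lies relative to the deleted part is unknown here, so it does not check the genotype.

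Proteasome gene expression was compared between Cav3.1 KO and WT. No member of the 40 passed the test, and the differences were small, from -0.21 for Psmd14 to 0.17 for Psmb10 on the normalised log2 scale (Cav3.1 KO minus WT). Core, immune and regulatory genes were alike in this, with the lowest adjusted p, 0.576, in the immune subunit gene Psmb9. The difference was positive for 15 members and negative for 25, and its median was -0.029. Over all 21150 probes tested, 49.3% were higher and the median difference was -0.00078. By limma with Benjamini-Hochberg adjustment 0 of 40 members were called, where the share over all probes was 0.288%, 0.199% higher and 0.0898% lower. At an unadjusted limma p under 0.05 there were 3 members (7.5%), all lower, against 8.10% of all probes, of which 4.34% were lower and 3.76% higher. The groups did not separate completely for any member, 0 of 40 against 4.95% of all probes, 2.42% higher and 2.53% lower. With the scan setting as a block 6 of 40 members had an unadjusted limma p under 0.05, against 9.98% of all probes. They were Psmb2, Psmb5, Psmb8, Psmb10, Psmd6 and Psmd14, and the lowest adjusted p was 0.352. Within the scan set that holds Cav3.1 KO replicate 1 as its only Cav3.1 KO array, the members' median difference was -0.101. Within the other set, where WT replicate 3 is the only WT array, it was -0.0119. Cav3.1 KO replicates 2 and 3 were the arrays with the high thalamus markers. Without them 8 of 40 members had an unadjusted limma p under 0.05, against 8.87% of all probes.

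The 95% intervals show how large a difference these arrays leave room for in the main fit. For 40 of the 40 members the interval of that fit lay within 1.5-fold in either direction. The bound was not examined in the other fits. With the scan setting as a block Psmb8 differed by -0.395 and Psmb10 by 0.312, both further from WT than in the main fit. The widest interval of the main fit was that of Psmb8, from -0.570 to 0.208. These bounds are on the normalised scale, which carries an offset of 50 and understates the change of dim genes. Standard errors of the members ran from 0.0242 to 0.169 with a median of 0.0729, against a median of 0.0462 over all probes tested. The median size of the difference, without its sign, was 0.0537 for the members and 0.0342 over all probes tested.

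**Figure D1:**
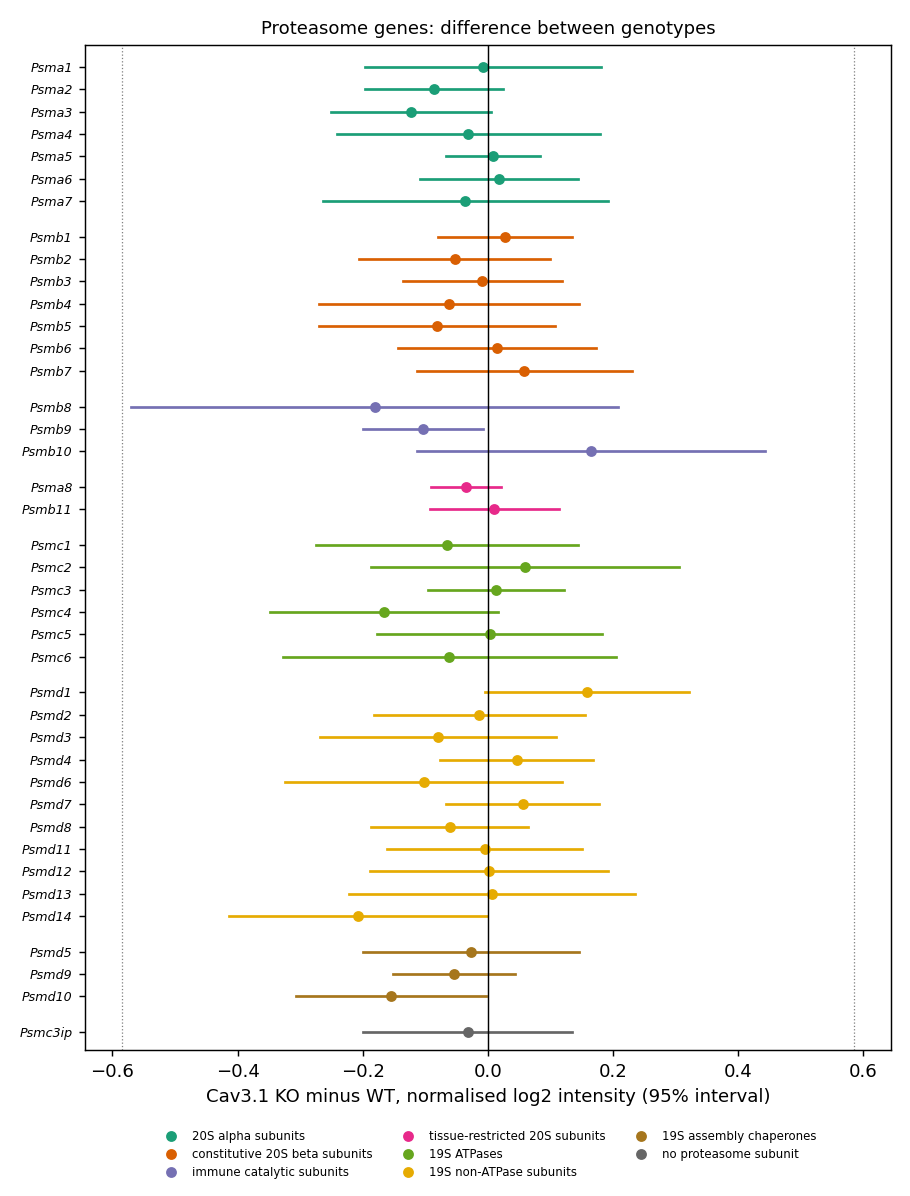
Difference between Cav3.1 KO and WT (x axis, normalised log2 intensity) for each of the 40 members (y axis), grouped by role. Points are the limma estimates, bars their 95% intervals, and dotted lines mark 1.5-fold; 37 of the intervals cover 0, and those of Psmb9, Psmd10 and Psmd14 lie just below it without passing the adjusted test.

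Cav3.1 KO replicate 1 stood apart for these genes. It was the lowest of the 8 arrays for 17 of 40 members (42.5%), where it was the lowest for 16.9% of all probes tested. The median deviation of the members from their own mean over the arrays was -0.096 on this array and between -0.026 and 0.050 on the other 7. The 17 included 3 of 7 alpha subunits, 4 of 7 constitutive beta subunits, 3 of 6 ATPases and 4 of 11 non-ATPase subunits, and also Psmb8, Psmb11 and Psmd5. Against that pattern, Psma5, Psmb10 and Psmc1 were highest on the same array. Without Cav3.1 KO replicate 1, 22 of 40 members were higher and the median difference was 0.00047. The markers of dentate granule neurons were also lowest on this array (6.998), and so were those of CA field pyramidal neurons (6.74), of endothelial cells and pericytes (7.57) and of meningeal fibroblasts (6.805), 4 of the 10 marker lists. Their part in the result was not tested.

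**Figure D2:**
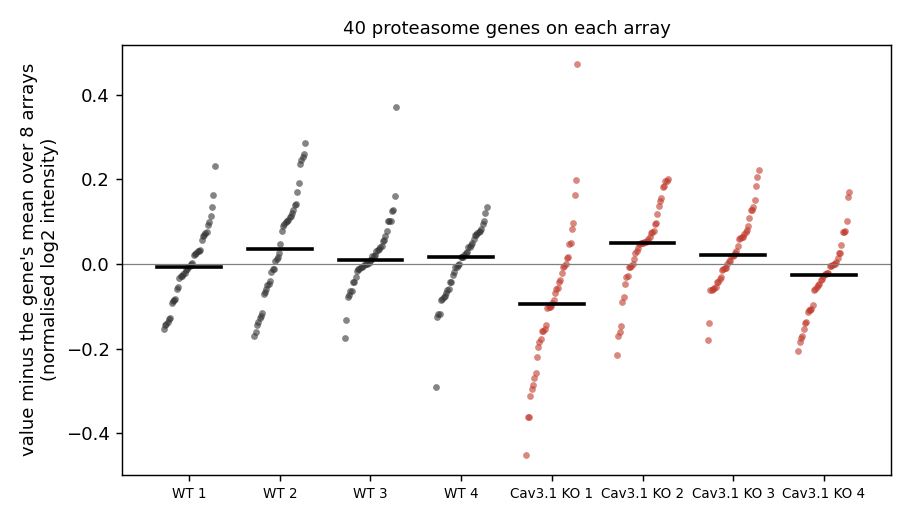
Value of each of the 40 members minus that gene's mean over the 8 arrays (y axis, normalised log2 intensity), by array (x axis), with WT in grey and Cav3.1 KO in red. The bars are medians over the members, lowest on Cav3.1 KO replicate 1 at -0.096.

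The size of the members' median difference, and the number of members higher, also depended on the scaling. With quantile normalisation 15 of 40 members were higher, but 3 were with each array centred on its median and 2 in the value table deposited by the authors. The members' median was then -0.092 and -0.111. The brightest 25% of all probes moved too, with medians of -0.0613 and -0.0801 against -0.0028 under quantile normalisation. In the deposited table the median of all probes was -0.0624. No member was called under either scaling.

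The alpha subunits, which form the outer rings of the core and its gate, lay close to WT. The differences of the 7 genes ran from -0.12 (Psma3) to 0.018 (Psma6), 2 higher and 5 lower, with adjusted p-values from 0.649 to 0.998. Psma3 read 9.89, 9.83, 9.85 and 9.94 in WT and 9.75, 9.88, 9.78 and 9.61 in Cav3.1 KO. One Cav3.1 KO array, replicate 2, lay within the WT values and the other 3 below them. Its difference was -0.12 (SE 0.0557, 95% interval -0.251 to 0.0052, adjusted p 0.649). It was -0.137 among the arrays with the steeper gain slope and -0.0989 among the others. Psma6 read 11.38, 11.22, 11.37 and 11.39 in WT and 11.34, 11.49, 11.31 and 11.29 in Cav3.1 KO. Its groups overlapped, at 11.34 ± 0.0803 (SD, n = 4) and 11.36 ± 0.0874 (SD, n = 4), and the difference of 0.018 turned to -0.0908 with median centring.

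The constitutive beta subunits, of which those of Psmb5, Psmb6 and Psmb7 carry the proteolytic sites, showed differences from -0.081 (Psmb5) to 0.058 (Psmb7), 3 higher and 4 lower. Psmb5, the chymotrypsin-like subunit, read 12.23, 12.19, 12.35 and 12.30 in WT and 11.94, 12.30, 12.30 and 12.20 in Cav3.1 KO. A single array, Cav3.1 KO replicate 1, lay below all WT values, and the difference of -0.081 (SE 0.0818, adjusted p 0.946) was 0.000501 without it. With the scan setting as a block it was -0.191 (unadjusted p 0.0127, adjusted p 0.352), and it was -0.298 within the set that holds replicate 1 and -0.0844 within the other. Psmb6, the caspase-like subunit, read 11.78, 11.80, 11.92 and 11.73 in WT and 11.71, 11.96, 11.91 and 11.71 in Cav3.1 KO. Replicates 1 and 4 of Cav3.1 KO lay below all WT values, replicate 2 above them and replicate 3 among them. The difference was 0.015 (SE 0.0689, limma adjusted p 0.996). Psmb7, the trypsin-like subunit, read 9.82, 9.94, 9.79 and 9.73 in WT and 9.70, 10.01, 9.98 and 9.82 in Cav3.1 KO, which differed by 0.058 (SE 0.0747, adjusted p 0.971). It was -0.128 and 0.150 within the scan sets, so even its sign was not settled. The promoter stretches of Psmb5 and Psmb6 shown above both hold a match to the core of the antioxidant response element, and neither gene passed the test.

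The immune catalytic subunits did not move together. Psmb8 and Psmb9 were lower in the mean of Cav3.1 KO and Psmb10 was higher, and none passed the test. Their probes lay at 1.54 to 6.74 times the mean blank spot.

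Psmb8, the immune counterpart of Psmb5, read 7.40, 7.05, 7.54 and 7.05 in WT and 6.72, 6.96, 7.38 and 7.27 in Cav3.1 KO. The WT arrays split into a higher and a lower pair, and the Cav3.1 KO values lay below or between these pairs. It was the most variable member, with 7.26 ± 0.250 for WT against 7.08 ± 0.301 for Cav3.1 KO (SD, n = 4 each), and its difference of -0.18 had an SE of 0.169 (95% interval -0.570 to 0.208, adjusted p 0.937). After subtraction of the blank level it was -0.299. With the scan setting as a block it was -0.395 (unadjusted p 0.0206, adjusted p 0.400), and within the sets it was -0.449 and -0.341.

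Psmb9, the immune counterpart of Psmb6, had the smallest p of the 40. It read 6.47, 6.37, 6.44 and 6.45 in WT and 6.32, 6.38, 6.39 and 6.23 in Cav3.1 KO. The groups met at their edges, with WT replicate 2 lower than Cav3.1 KO replicates 2 and 3. The means were 6.43 ± 0.0444 (SD, n = 4) and 6.33 ± 0.0727 (SD, n = 4), and the difference of -0.10 (SE 0.0419, 95% interval -0.200 to -0.0075) had an unadjusted p of 0.0377 and an adjusted p of 0.576 by limma. Within the scan sets it was -0.107 in each. The probe lay at 1.54 times the mean blank spot, and the difference was -0.290 after subtraction of the blank level.

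Psmb10, the immune counterpart of Psmb7, read 8.43, 8.53, 8.45 and 8.57 in WT and 9.05, 8.55, 8.44 and 8.60 in Cav3.1 KO. Its higher mean in Cav3.1 KO rested on replicate 1, which stood at 9.05 while replicates 2 and 3 lay within the WT values and replicate 4 just above them. The difference of 0.17 (SE 0.121, adjusted p 0.878) was 0.035 without that array. With the scan setting as a block it was 0.312 (unadjusted p 0.0169, adjusted p 0.378), at 0.539 within the set that holds replicate 1 and 0.0846 within the other.

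**Figure D3:**
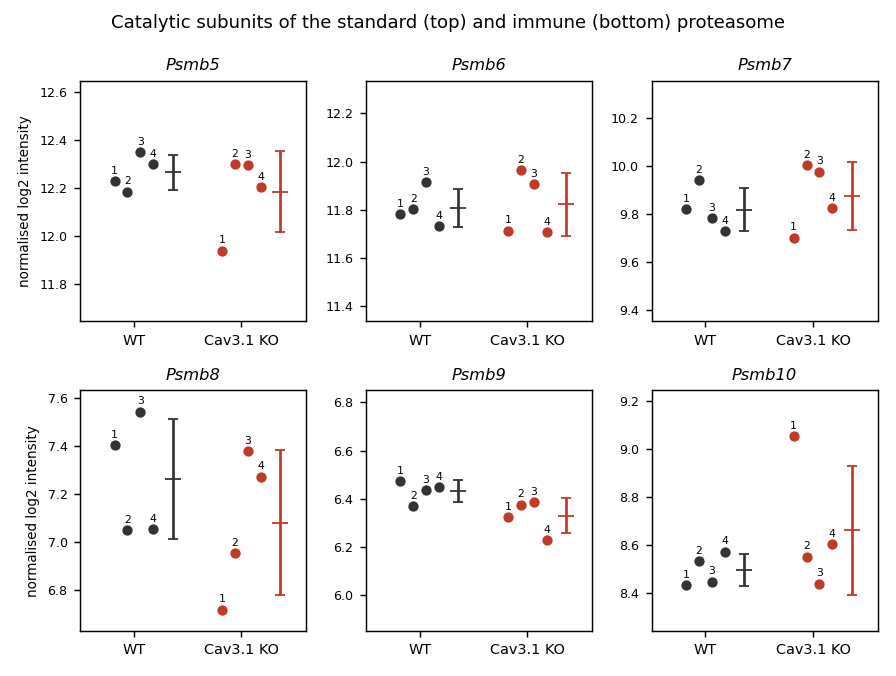
Normalised log2 intensity (y axis, each panel spanning 1 unit) of the catalytic subunit genes of the standard (Psmb5, Psmb6, Psmb7) and the immune proteasome (Psmb8, Psmb9, Psmb10), by genotype (x axis). Points are arrays with their replicate number and bars the mean ± SD (n = 4); on Cav3.1 KO replicate 1 Psmb5 and Psmb8 are lowest and Psmb10 is highest.

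Microglia are a known site of immune proteasome expression in brain. All 11 measured markers of these cells and of macrophages had a negative difference, 0 passed the test, and all were above the blank level on every array. Their mean ran from 8.14 to 8.35 over the WT arrays and from 8.08 to 8.21 over the Cav3.1 KO arrays. Markers of endothelial cells and pericytes had a negative difference for 7 of 10 genes with 1 called, their mean running from 7.72 to 7.78 over the WT arrays and from 7.57 to 7.66 over the Cav3.1 KO arrays, and Cdh5 was not above the blank level on every array. The part of these cells in the values of Psmb8 and Psmb9 was not tested. The partners of the immune subunits in antigen processing gave no common direction, with 5 of 9 measured genes higher and 4 lower, 0 called, and a median difference of 0.0062. Among them were Tap1 at 0.0062, the peptide transporter gene that neighbours Psmb9, B2m, the light chain of MHC class I, at 0.014, and the heavy chain gene H2-K1 at -0.097. Irf1, an interferon-induced transcription factor, had the smallest p of the pathway genes. It read 7.03, 6.95, 6.89 and 7.04 in WT and 6.75, 6.83, 6.84 and 6.85 in Cav3.1 KO, with every Cav3.1 KO array below every WT array. Such separation was seen for 1 of the 38 pathway genes tested, against 4.95% of all probes (2.53% lower). No other pathway gene had an unadjusted limma p under 0.05, where 8.10% of all probes did. The difference of -0.16 (SE 0.0429, unadjusted p 0.0056) did not pass after adjustment (adjusted p 0.278), and it was -0.262 and -0.0457 within the scan sets.

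The tissue-restricted core subunits were near the blank level, at 1.14 times the mean blank spot for Psma8 and 1.19 times for Psmb11. Psma8 read 5.95, 5.95, 5.93 and 5.94 in WT and 5.94, 5.92, 5.89 and 5.89 in Cav3.1 KO, and Psmb11 read 5.98, 5.93, 5.96 and 6.07 in WT and 5.89, 6.04, 6.05 and 5.99 in Cav3.1 KO. The groups overlapped for both genes, with differences of -0.035 (adjusted p 0.864) and 0.010 (adjusted p 0.996).

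The 19S ATPases, which unfold substrates and feed them into the core, were 3 higher and 3 lower, from -0.17 (Psmc4) to 0.060 (Psmc2). Psmc4 read 8.99, 9.19, 8.95 and 9.03 in WT and 8.69, 9.01, 8.95 and 8.85 in Cav3.1 KO. Its difference of -0.17 (SE 0.079, adjusted p 0.676) was -0.104 without Cav3.1 KO replicate 1, and -0.384 and -0.010 within the scan sets. Psmc2 read 11.56, 11.62, 11.50 and 11.21 in WT and 11.50, 11.33, 11.73 and 11.58 in Cav3.1 KO. WT replicate 4 was the low value, and the difference of 0.060 (SE 0.107, adjusted p 0.982) was -0.028 without it. The other ATPases, Psmc1, Psmc3, Psmc5 and Psmc6, differed by -0.066 to 0.013. Psmc6, whose stretch with a match to the antioxidant core is shown above, had a wide spread in Cav3.1 KO (SD 0.255, n = 4). Its replicate 1 stood at 9.98 against 10.25 to 10.53 on the others.

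The non-ATPase subunits of 19S held both ends of the range of the constitutive genes. Psmd14, the deubiquitinase that removes ubiquitin chains from substrates at the proteasome, had the most negative difference of the 40. It read 10.21, 10.32, 10.09 and 10.09 in WT and 9.76, 10.12, 10.10 and 9.90 in Cav3.1 KO. Replicates 1 and 4 of Cav3.1 KO lay below all WT arrays, while replicates 2 and 3 matched WT replicates 3 and 4. The difference of -0.21 (0.866-fold, SE 0.0895, 95% interval -0.413 to -0.0019) had an unadjusted p of 0.0484 and an adjusted p of 0.609 by limma. It was -0.138 without Cav3.1 KO replicate 1, and -0.444 and -0.0539 within the scan sets. Psmd1, a large scaffold subunit at the base of 19S, lay at the other end. It read 10.12, 10.18, 10.08 and 10.31 in WT and 10.22, 10.45, 10.24 and 10.42 in Cav3.1 KO, with WT replicate 4 inside the Cav3.1 KO values. Its difference was 0.16 (1.12-fold, SE 0.0709, 95% interval -0.0047 to 0.322, adjusted p 0.643), and it was 0.0099 and 0.292 within the scan sets.

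The promoters of these 2 genes are shown up to 30 bases after the start site, because they mark the ends of the range among the constitutive genes. Capitals mark CCAAT and GGGCGG on either strand.
Psmd14, chr2:61711444-61711723, plus strand: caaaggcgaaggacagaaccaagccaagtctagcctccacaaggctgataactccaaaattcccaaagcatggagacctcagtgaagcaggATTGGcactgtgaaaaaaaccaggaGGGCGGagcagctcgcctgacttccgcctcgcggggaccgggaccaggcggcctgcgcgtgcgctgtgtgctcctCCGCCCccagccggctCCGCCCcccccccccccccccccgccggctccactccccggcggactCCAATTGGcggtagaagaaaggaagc
Psmd1, chr1:86064369-86064648, plus strand: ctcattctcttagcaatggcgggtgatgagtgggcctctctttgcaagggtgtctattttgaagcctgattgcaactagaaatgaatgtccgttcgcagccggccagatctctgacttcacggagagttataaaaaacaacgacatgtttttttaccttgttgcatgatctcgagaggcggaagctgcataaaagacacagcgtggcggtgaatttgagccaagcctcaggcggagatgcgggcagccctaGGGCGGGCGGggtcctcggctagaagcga
The window of Psmd14 held 6 matches, 3 of each motif, of which the CCAAT matches at positions 5 and 8 overlap each other. The window of Psmd1 held 2 GC boxes, at positions 2 and 6, which also overlap. Neither window held the core antioxidant response element.

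The other non-ATPase subunits were nearer to WT. The ubiquitin receptor genes Psmd2 and Psmd4 differed by -0.014 and 0.046, Psmd7, the inactive partner of Psmd14, by 0.056, and Psmd11, whose product is known to promote 26S assembly, by -0.005. The lid subunits Psmd3, Psmd6, Psmd8, Psmd12 and Psmd13 differed by -0.080, -0.10, -0.061, 0.0017 and 0.0064. In all, 5 of the 11 were higher and 6 lower, with adjusted p-values from 0.609 to 0.999. The mean over the 11 genes was 9.675 ± 0.0794 for WT against 9.656 ± 0.0513 for Cav3.1 KO (SD, n = 4 each).

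The chaperones that assemble 19S were lower in the mean of Cav3.1 KO for 3 of 3 genes. Psmd10, known as gankyrin and as an oncoprotein, read 8.53, 8.47, 8.47 and 8.31 in WT and 8.38, 8.21, 8.39 and 8.18 in Cav3.1 KO. WT replicate 4 lay among the Cav3.1 KO values and the other WT arrays above them. Its difference of -0.16 (SE 0.0658, 95% interval -0.306 to -0.0037) had an unadjusted p of 0.0458 and an adjusted p of 0.602 by limma, and it was -0.0543 and -0.211 within the scan sets. Psmd9 and Psmd5 differed by -0.054 (adjusted p 0.896) and -0.027 (adjusted p 0.993). Psmc3ip, which is no subunit, read 7.30, 7.02, 7.23 and 7.27 in WT and 7.09, 7.25, 7.27 and 7.08 in Cav3.1 KO, which differed by -0.032 (adjusted p 0.989).

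**Figure D4:**
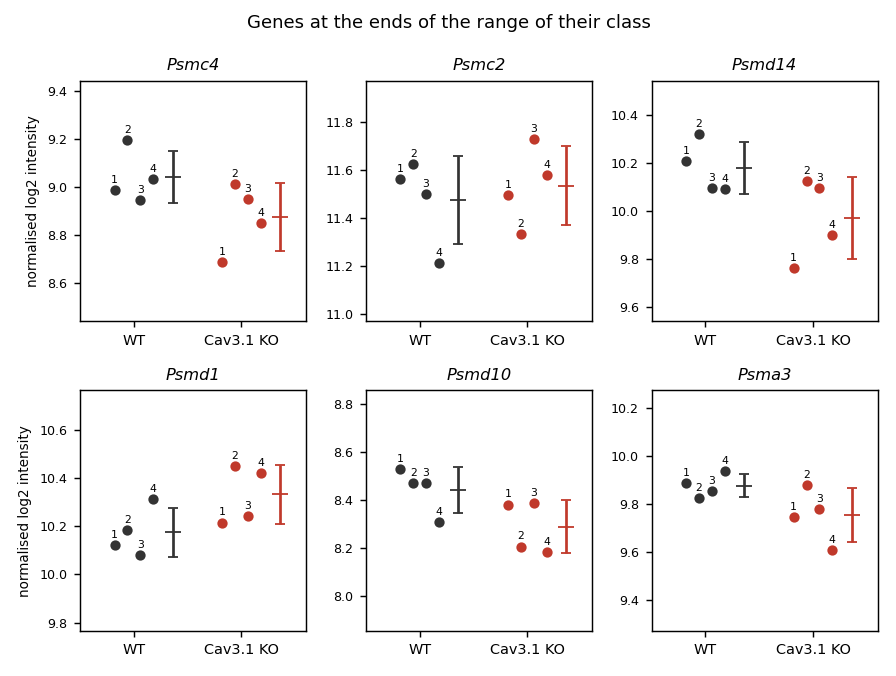
Normalised log2 intensity (y axis, each panel spanning 1 unit) by genotype (x axis) for Psmc4, Psmc2, Psmd14, Psmd1, Psmd10 and Psma3. Points are arrays with their replicate number and bars the mean ± SD (n = 4); in each panel the values of the 2 groups overlap.

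For Psmd3, Psmd5 and Psmd8 a second, much dimmer probe was on the array, at 1.16 to 1.24 times the mean blank spot against 8.17 to 14.7 times for the probe used. The second probes gave -0.019, -0.043 and 0.047, against -0.080, -0.027 and -0.061. For Psmd8 the signs were opposite, and none passed the test.

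The spread between arrays was larger in Cav3.1 KO than in WT for 29 of 40 members, with a median SD of 0.116 against 0.0906. Without Cav3.1 KO replicate 1 the members' median SD in Cav3.1 KO was 0.0829, below that of WT. Over all probes tested the median SD was 0.0642 in Cav3.1 KO and 0.0599 in WT. No test of this difference in spread was made, and the share of all probes with the larger spread in Cav3.1 KO was not counted.

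The genes that act with the proteasome were compared through 8 lists. Of 53 listed symbols 39 had a probe and 38 were tested, of which 20 were higher and 18 lower with a median difference of 0.0092, and 0 were called. Among the factors of 20S assembly, Pomp, the maturation factor of the core, differed by 0.12 (SE 0.0571, adjusted p 0.658) and Psmg1, Psmg2 and Psmg3 by -0.013, -0.041 and 0.021. Of the activators and the inhibitor, Psme1, a subunit of the interferon-induced activator PA28, differed by 0.10 and Psme4 by 0.10, while Psme3 and the inhibitor gene Psmf1 differed by -0.021 and -0.050. Psme1 read 8.78 on Cav3.1 KO replicate 1 against 8.47 to 8.67 on the other 7, so it was highest on the same array as Psmb10. The proteasome-bound deubiquitinases Usp14 and Uchl5 differed by 0.023 and 0.053. The factors of transcription and import were lower for 4 of 4 genes, with Nfe2l1 at -0.061 (adjusted p 0.945), its relative Nfe2l2 at -0.11 (adjusted p 0.805) and Akirin2, which brings proteasomes into the nucleus, at -0.12 (adjusted p 0.662). The most positive difference of the lists was that of Ubxn1, a cofactor of the segregase VCP, which read 10.60, 10.02, 10.66 and 10.36 in WT and 10.37, 10.60, 10.70 and 10.65 in Cav3.1 KO. WT replicate 2 was the low value, and the difference of 0.17 (SE 0.141, adjusted p 0.920) was 0.038 without it. Vcp itself differed by 0.075, and of the 5 shuttle factors with a probe, 4 were tested, 3 higher and 1 lower. Of the list of ubiquitin genes and activating enzymes only Uba6 had a probe with its symbol, at -0.033 (adjusted p 0.995).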

How the data were processed

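Each array was a single-colour TORAY chip, hybridised with Cy5-coupled amplified RNA per the labels' protocols. The scanner files hold a median spot intensity at 635 nm, not normalised, with flags at 3 gains, per the file headers. The sources used here do not say how the gains were merged or with which software. The intensity under a background heading, also deposited, followed its own spot (r of the logarithms 0.994 to 0.996), so it was not taken as a local background. The value table deposited by the authors holds processed linear intensities of unstated normalisation (median 25 on each array), and it served as an alternative on the log2 scale.

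From the spot intensities, normexp (offset 50, all spots) and quantile normalisation gave log2 values. Probes above the 95th percentile of the blank spots on at least 4 of the 8 arrays were kept. Of 23473 probes, 2239 were too dim and 84 had a spot marked as not good, which left 21150. The test was limma's (version 3.58.1, R 4.3.3; group means, Benjamini-Hochberg over all probes, threshold 0.05), and the fit was tested on simulated data. The number of arrays limits the precision. Values for each array and full statistics are given for members with an unadjusted p under 0.05, those at the ends of the range of each class and the catalytic subunits, and for pathway genes with an unadjusted p under 0.05 or at the ends of their range. Members, classes, lists and motifs were chosen with earlier results of these data known. Symbols of 40 of 40 members matched RefSeq GRCm38.p6 by gene ID. Arrays with the same replicate number did not deviate together (correlations of -0.115, -0.077, -0.075 and 0.011), so the main fit has no block by replicate number. Pairs with different numbers ran from -0.372 to 0.404, highest for WT replicate 3 with Cav3.1 KO replicate 4. Those arrays carry the late chip numbers and the others the early ones. Blocks by scan setting and by chip set were left to alternative fits.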

Additional observations from a re-analysis of the deposited data

Results flagged for a closer look

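In each group of 4 arrays the extreme value was compared with its nearest neighbour, as a share of the range of the group. Over the 80 groups of members, 3 passed Dixon's limit, where chance flags about 1 in 20 groups. For Psma4 in Cav3.1 KO the ratio was 0.903, with replicate 1 at 9.97 and the next array at 10.33. For Psma6 in WT it was 0.875, with replicate 2 at 11.22 and the next at 11.37. For Psmd8 in Cav3.1 KO it was 0.939, with replicate 4 at 9.59 and the next at 9.70.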

How the results depend on the processing

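No member and no pathway gene was called under any alternative run, which covered other background corrections, scalings, filters, blocks and sets of arrays. Probes called over all genes numbered 61 in the main fit, 36 with median centring, 31 in the deposited table and 23 with the scan setting as a block. They numbered 7 within the early chip numbers, 17 without Cav3.1 KO replicates 2 and 3 and 16 to 49 with 1 array left out. With the replicate block, 8 were called, and no member was. The replicate numbers were not shown to pair the samples. The chip number sets and the omission of both arrays were chosen after seeing the data. A lone array of a genotype within a scan set was assumed to vary like the others.

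Of the 40 members, those with an unadjusted limma p under 0.05 numbered 3 in the main fit and 1 after blank subtraction. They numbered 1 in the deposited table and 6 with the scan block, against 9.98% of all probes with that block. They numbered 0 within the early chips, 8 without Cav3.1 KO replicates 2 and 3 (against 8.87% of all probes) and 0 to 4 with 1 array left out. Counts within the scan sets are not given, because each fit there rests on 1 array of a genotype, so these counts do not span every fit. Members higher numbered 3 with median centring, 2 in the deposited table and 10 to 22 with 1 array left out. Their median difference, -0.029 in the main fit, was -0.0922 with median centring, -0.111 in the deposited table, -0.0564 with the scan block, -0.0119 within the scan set that lacks Cav3.1 KO replicate 1, -0.0058 within the early chips, -0.101 within the scan set that holds Cav3.1 KO replicate 1, -0.0891 without replicates 2 and 3 and -0.0503 to 0.00047 with 1 array left out. That of the pathway genes was -0.0248 with median centring, -0.0591 in the deposited table and -0.0037 to 0.019 with 1 array left out.

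The sign of some named genes changed, and the cause was not tested. With median centring Psma6, Psmb6, Psmb7 and Psmc2 were at -0.0908, -0.0842, -0.0204 and -0.0496. In the deposited table Psma6, Psmb6, Psmb7, Psmb11 and Psmc2 were at -0.0988, -0.0914, -0.0295, -0.0032 and -0.0563. With the scan block Psmb6 and Psmb11 were at -0.0576 and -0.0139. Within the set that holds Cav3.1 KO replicate 1, Cacna1g was at 0.0058 and Psmb6, Psmb7 and Psmb11 at -0.0585, -0.128 and -0.0966, and within the other set Psma6, Psmb6 and Ubxn1 at -0.0057, -0.0568 and -0.0108. Within the early chips Psmc3ip was at 0.0062. Without Cav3.1 KO replicates 2 and 3, Psma6, Psmb6, Psmb7 and Psmb11 were at -0.021, -0.0974, -0.0558 and -0.0421. With 1 array left out the ranges were -0.0247 to 0.0389 for Psma6, -0.12 to 0.000501 for Psmb5, -0.032 to 0.0532 for Psmb6, -0.0086 to 0.0432 for Psmb11 and -0.0277 to 0.127 for Psmc2.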
